A study of Mus musculus with 4 samples.

Results

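The gene expression of 3T3-L1 cells given an siRNA against Rfk was set against that of cells given an siRNA against Aof2, the older symbol of Kdm1a. The comparison takes 2 of the 4 arrays of the study, those labelled rfk siRNA and aof2 siRNA. 3T3-L1 is a mouse preadipocyte line that turns into fat cells under insulin, dexamethasone and 3-isobutyl-1-methylxanthine. The cells were kept in DMEM with 25 mM glucose and 10% fetal bovine serum, received the siRNA as preadipocytes, were given the hormone mix 24 h later, and were harvested 24 h after that. The other arrays came from a culture with a control siRNA (siGL3), handled in the same way, and from a culture with tranylcypromine in the induction medium, a drug that blocks monoamine oxidases and LSD1, for which the labels name no siRNA. Each condition had 1 array. Of 18194 genes named on the array, 10788 were compared, namely those with a mean signal over the 4 arrays of at least 50.9, the median of all probe sets.

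The targets of the siRNAs stand at different points of one biochemical route. Riboflavin kinase, the product of Rfk, phosphorylates riboflavin (vitamin B2) to flavin mononucleotide, and FAD synthase, the product of Flad1, turns this into flavin adenine dinucleotide (FAD). LSD1, the product of Kdm1a, is one of many enzymes that use FAD. It removes methyl groups from lysine 4 of histone H3 and works in a repressor complex with CoREST and histone deacetylases. The comparison asks where the expression pattern after loss of the flavin kinase transcript departs from that after loss of the demethylase transcript.

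The values are MAS5 signals, which are linear intensities that had been scaled array by array, to a trimmed mean of 500.003 (2% of probe sets left out at each end). Their differences are given as log2 of the rfk signal over the aof2 signal, so that a negative value means a lower signal with rfk siRNA and 1 log2 unit means 2-fold. With 1 array a side no test was possible, the spread between cultures is unknown, and the number of arrays limits the precision. All statements below describe these arrays. Some measures of technical scatter were available. Hybridisation controls (18 probe sets) differed between the 2 arrays by log2 values of -0.09 to 0.18. Poly-A control transcripts, which go through the labelling, differed by -0.31 to 0.24 over 24 probe sets. Probe sets of the same gene gave differences that lay apart by a median of 0.28 over 5228 genes, with a 90th percentile of 0.82. The ratio of 3' to 5' signal was 0.834 to 0.841 for Gapdh and 1.25 to 1.34 for Actb over the 4 arrays.

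Each siRNA went with a low signal of its own target and with no such difference in the other target. For Kdm1a the signals were 681 (aof2 siRNA), 3471 (rfk siRNA), 3494 (control siRNA) and 3054 (tranylcypromine). The signal with aof2 siRNA was 19.6% of that with rfk siRNA, and the other probe set of the gene gave 17.9%. For Rfk the signals were 2018 (aof2 siRNA), 573 (rfk siRNA), 2122 (control siRNA) and 2334 (tranylcypromine). The signal with rfk siRNA was 28.4% of that with aof2 siRNA, and the other probe sets of Rfk gave 32.3% and 35.2%. Both targets therefore stand among the largest differences of the comparison, at 2.35 for Kdm1a and -1.82 for Rfk.

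Differences toward lower signal with rfk siRNA outnumbered those toward higher signal. At least 2-fold lower were 173 genes (1.6% of those compared), and 61 (0.565%) were at least 2-fold higher, so that 73.9% of the 234 genes past 2-fold were lower. After centring each array on its median the counts were 135 lower and 82 higher, or 62.2% lower. At least 1.5-fold lower were 677 genes (6.28%) and 347 (3.22%) were at least 1.5-fold higher. The median difference over all compared genes was -0.01, with 48.5% of genes above 0. Most genes past 2-fold were dim. Among the 6873 bright genes, those with a mean signal of at least 414, 29 (0.422%) were at least 2-fold lower and 5 (0.0727%) at least 2-fold higher. At 1.5-fold these counts were 206 (3%) and 91 (1.32%). Among the dimmest 20% of the compared genes, the middle 95% of differences ran from -1.28 to 0.98. Among the brightest 20% they ran from -0.52 to 0.41, with 4 genes past 2-fold in the lower direction and 0 in the higher one.

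**Figure D1:**
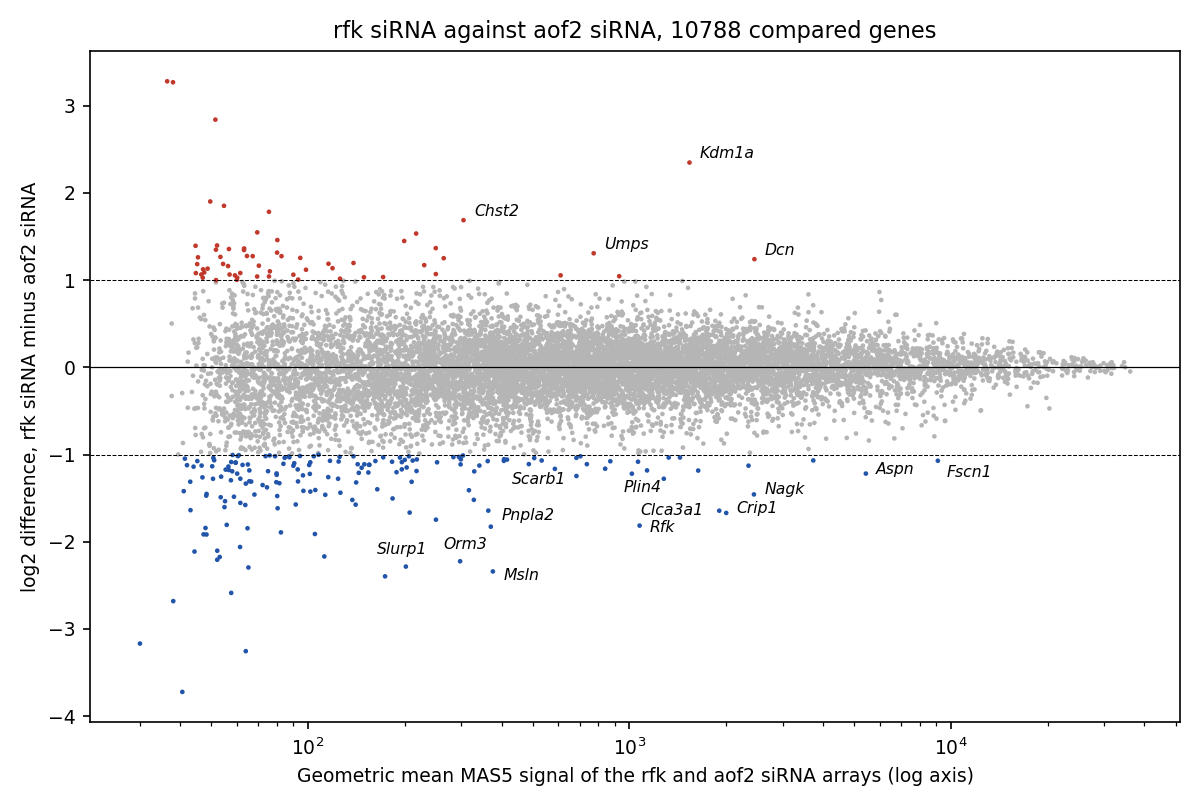
Log2 difference between the rfk siRNA and aof2 siRNA arrays (vertical axis, rfk minus aof2) against the geometric mean of the 2 signals (horizontal axis, log scale) for 10788 compared genes, 1 point each. Red points lie at least 2-fold higher with rfk siRNA (61 genes), blue points at least 2-fold lower (173 genes), dashed lines mark 2-fold, and the scatter narrows toward bright genes.

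Genes are named below mainly from those whose brighter array of the 2 reached a signal of 414. Genes named from the gene lists need not reach it, and differences of such dim genes are of unreliable size. Around the 2-fold line, Isg20 at -1.01 lay just inside and Ehd4 at -0.996 just outside in the lower direction. In the higher direction Arhgap20 at 1.05 lay just inside and Egr3 at 0.99 just outside. These 4 genes lay nearer to the line than the median gap of 0.28 between probe sets of a gene.

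One group of the genes lower with rfk siRNA was high with aof2 siRNA and with tranylcypromine, while the rfk siRNA array stood close to the control array. Msln, which encodes the surface glycoprotein mesothelin, had the lowest difference among genes reaching that signal, -2.34, with signals of 846 (aof2 siRNA), 167 (rfk siRNA), 194 (control siRNA) and 2149.6 (tranylcypromine). It was 5.07-fold lower with rfk siRNA than with aof2 siRNA. Slurp1, a small secreted protein of the Ly6 family, stood at -2.29, with signals of 445, 91.3, 82.2 and 840.5 in the same order, which holds for every series of 4 signals below. Cystm1, which encodes a small cysteine-rich membrane protein, had signals of 458, 136, 115 and 962 and a difference of -1.75. In these 3 genes the tranylcypromine array was the highest of the 4 and the aof2 siRNA array came next.

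Crip1, a small LIM domain protein, followed the same order at a higher signal, with 3568, 1121, 893 and 3867 and a difference of -1.67. Pnpla2, the adipose triglyceride lipase that starts the breakdown of stored triglyceride, was 3.55-fold lower with rfk siRNA, with signals of 698, 197, 239.6 and 963. A further, dimmer probe set of Pnpla2 gave -1.50. Ampd3, an AMP deaminase of purine metabolism, had signals of 1992, 821, 1082 and 2660.1 and a difference of -1.28. Lrrc75a, a leucine-rich repeat protein, had signals of 556, 194, 225 and 579. Clca3a1, a chloride channel accessory protein, had 3365, 1076, 1489 and 2415, with the aof2 siRNA array the highest. In all of these genes the rfk siRNA signal was closer to control, on the log2 scale, than to aof2 siRNA.

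A further group was lower with rfk siRNA than in each of the 3 other arrays. Apart from Rfk itself, Nagk, the kinase that salvages N-acetylglucosamine, stood furthest below its nearest other array, with signals of 4043 (aof2 siRNA), 1472 (rfk siRNA), 3648 (control siRNA) and 3837 (tranylcypromine) and a difference of -1.46 from aof2 siRNA. Its second probe set above the filter gave -0.77. Scarb1, the receptor for high-density lipoprotein, had signals of 1054, 444, 1039 and 1104, so that the 3 other arrays lay close together and the rfk siRNA array apart, at -1.25 from aof2 siRNA. Fscn1, the actin-bundling protein fascin, showed the same shape at a high signal, with 13203, 6282, 13983 and 12389 and a difference of -1.07. Disp2, a relative of the Hedgehog release protein dispatched, stood at -1.41 with signals of 516, 194, 558 and 339, and a further probe set gave -0.82. Rgcc, a regulator of cell cycle progression, stood at -1.64, with signals of 643, 206, 465 and 793, and a further probe set gave -1.15. Plin4, a coat protein of lipid droplets, had signals of 1553, 667, 1389 and 1292 and a difference of -1.22.

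Orm3, an acute phase protein of the orosomucoid family, was both lowest with rfk siRNA and highest with aof2 siRNA among the 4 arrays. Its signals were 643 (aof2 siRNA), 138 (rfk siRNA), 377 (control siRNA) and 325 (tranylcypromine), and the difference was -2.22. Other genes stood apart mainly through a high aof2 siRNA array. Fam107a, an actin-associated protein, had signals of 2055, 1003, 199.6 and 947, so that all 3 treated arrays lay above control and the aof2 siRNA array highest, at -1.03 between the siRNAs. Pi16, a peptidase inhibitor of fibroblasts, stood at -1.07, but at -0.37 on a probe set below the filter whose name carries no mark of several matching transcripts. Masp1, a protease of the complement lectin pathway, stood at -0.87 and P2ry10b, a predicted nucleotide receptor, at -0.85. Npr3, the clearance receptor of natriuretic peptides, stood at -0.73, but its probe sets ran from -0.73 to 0.15 and settle no direction.

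**Figure D2:**
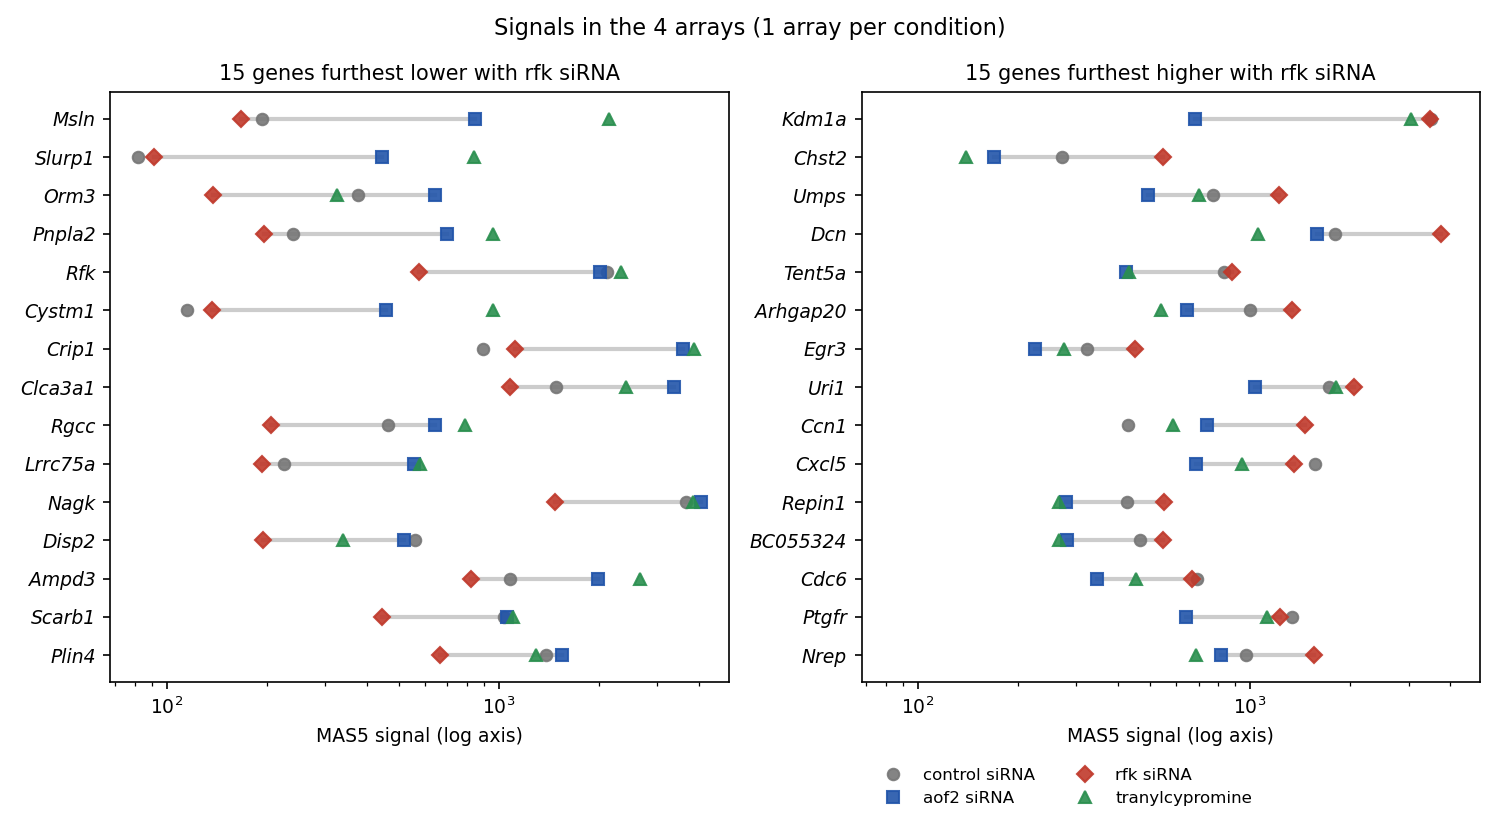
MAS5 signals (log axis) in each of the 4 arrays for the 15 genes furthest lower (left) and the 15 furthest higher (right) with rfk siRNA among genes reaching a signal of 414 in either array. Grey bars join the aof2 and rfk arrays, and in Msln, Slurp1, Cystm1 and Crip1 the rfk signal lies beside control while the aof2 and tranylcypromine signals lie above both.

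Genes higher with rfk siRNA were fewer, and Kdm1a led them. Chst2, a sulfotransferase that acts on N-acetylglucosamine in glycans, had signals of 169.8 (aof2 siRNA), 547 (rfk siRNA), 272 (control siRNA) and 139.7 (tranylcypromine) and a difference of 1.69. Dcn, the small collagen-binding proteoglycan decorin, had 1592, 3763, 1798 and 1058 and a difference of 1.24. In both genes the rfk siRNA array was the highest of the 4 and the tranylcypromine array the lowest. Arhgap20 showed the same order with 647, 1335, 1001 and 539. Nrep, a neuronal regeneration-related protein, did so with 819.8, 1554, 970.1 and 686 and a difference of 0.92.

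Ccn1, a matricellular protein and a target of the YAP coactivator, had signals of 742, 1467, 428 and 587, the rfk siRNA array again being the highest. Its difference was 0.98, but the probe sets of Ccn1 above the filter ran from -1.05 to 1.04 and settle no direction. Matn4, a matrilin of the extracellular matrix, stood at 0.83, Lifr, the receptor of leukemia inhibitory factor, at 0.83 with signals of 1727, 3061, 1642 and 1344, and Ly75, an endocytic receptor, at 0.79. For Lifr the probe sets ran from 0.32 to 0.83.

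In another set of genes the aof2 siRNA array was the low one and the rfk siRNA array stood with control. Uri1, a prefoldin-like protein, had signals of 1036 (aof2 siRNA), 2058 (rfk siRNA), 1722 (control siRNA) and 1810.0 (tranylcypromine) and a difference of 0.99. Ptgfr, the receptor of prostaglandin F2 alpha, had 640.2, 1228, 1337 and 1124 and a difference of 0.94, although its probe sets ran from 0.17 to 0.94. Slc11a2, the divalent metal transporter that carries iron, had 247, 462, 434 and 441 and a difference of 0.90, with probe sets from 0.26 to 0.90. Lonrf1, a RING finger protein, stood at 0.71, and Tbl2 at 0.62 with probe sets from -1.17 to 0.72. Cxcl5, a chemokine for neutrophils, had signals of 686, 1356, 1569 and 943 and a difference of 0.98. Tent5a, a cytoplasmic poly(A) polymerase, had 424, 881, 833 and 431, so that here the tranylcypromine array was low as well. Other genes among the 15 highest rested on single probe sets. Umps, the enzyme that makes uridine monophosphate, stood at 1.31, but its other probe sets gave 0.37 and 0.53. For Egr3, an immediate early factor, Repin1, a zinc finger protein, and BC055324, the other probe sets gave -0.29, 0.05 and 0.32.

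The tranylcypromine array, which enters neither side of the comparison, lay nearer to the aof2 siRNA array than to the rfk siRNA array for 60.0% of all compared genes. Among the 173 genes at least 2-fold lower with rfk siRNA it did so for 150, or 86.7% (95% Wilson interval 80.8% to 91.0%). It lay at or above both siRNA arrays for 69 of the 173. Among the 61 genes at least 2-fold higher with rfk siRNA it lay nearer to aof2 siRNA for 28, or 45.9% (34.0% to 58.3%). These intervals cover counting error over genes only. They treat genes of the same arrays as independent draws, so they are too narrow where genes move together, and they hold no spread between cultures. The control array lay nearer to the aof2 siRNA array for 46.8% of all compared genes, for 93 of the 173 lower genes (53.8%) and for 28 of the 61 higher genes (45.9%). Among bright genes the tranylcypromine array lay nearer to aof2 siRNA for 26 of 29 lower genes and 4 of 5 higher ones, beside 61.9% of all bright genes. The share among lower genes depends on the filter, which includes the tranylcypromine signal in its mean: over all named genes without a filter it was 62.7%.

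**Figure D3:**
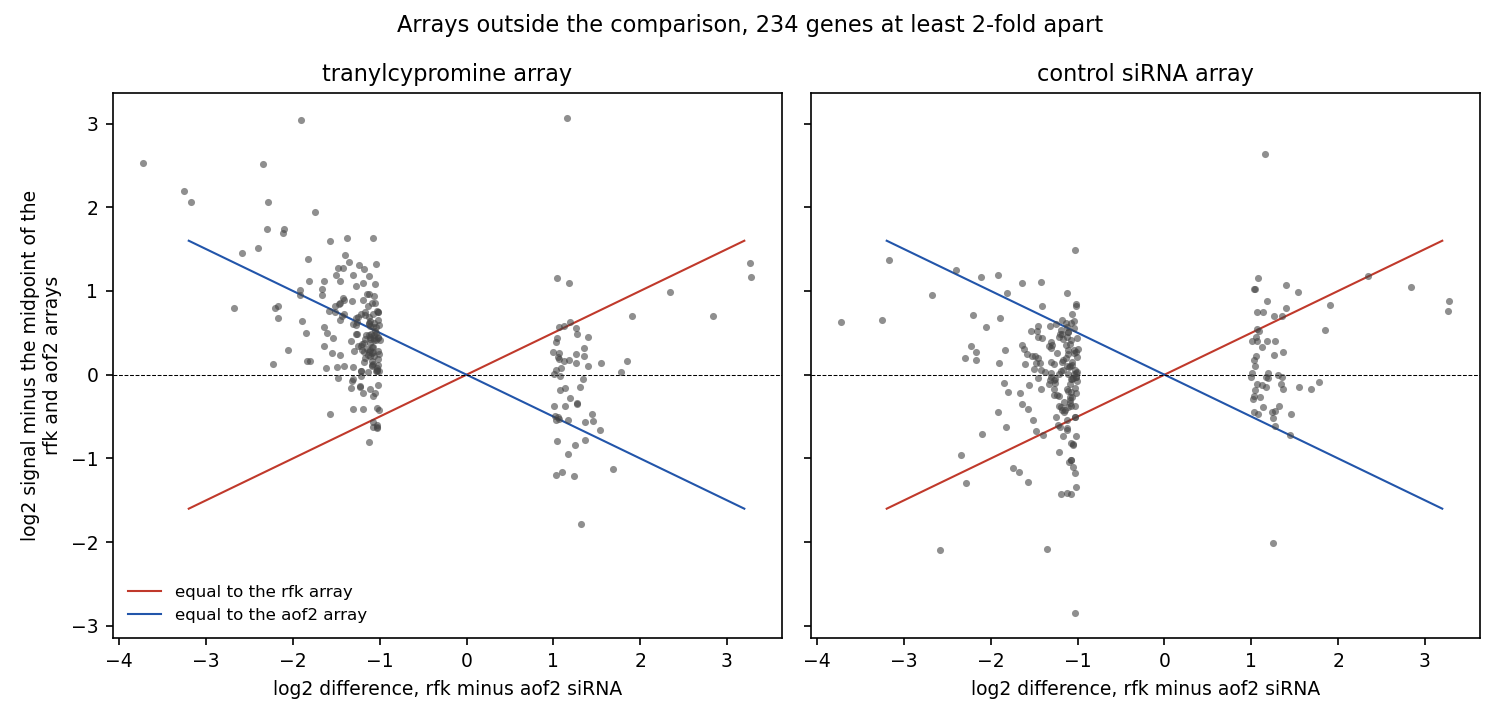
Log2 signal of the tranylcypromine array (left) and of the control siRNA array (right) relative to the midpoint of the rfk and aof2 siRNA arrays (vertical axis), against the log2 difference rfk minus aof2 (horizontal axis), for the 234 genes at least 2-fold apart. Points above the blue line at the left of a panel exceed the aof2 signal, and on the tranylcypromine panel 150 of the 173 genes at the left lie nearer to the blue line than to the red one.

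Apart from Rfk and Enpp3, the compared genes of flavin supply lay within 1.5-fold between the siRNAs, as did most compared genes. Over all compared genes, 6.28% were at least 1.5-fold lower and 3.22% at least 1.5-fold higher. Of 6 compared members 2 lay above 0 and 4 below, with a median of -0.17. Rfk, the target of the siRNA itself, is 1 of those below, so this count and median are no evidence of a lean of the other members. Flad1, FAD synthase, had signals of 392.3 (aof2 siRNA), 374 (rfk siRNA), 394 (control siRNA) and 448 (tranylcypromine), which differ by -0.07. Slc25a32, the mitochondrial carrier for folate and flavin, stood at 0.35. Acp1, a phosphatase that can act on flavin mononucleotide, stood at 0.25, with probe sets from -0.10 to 0.25. Blvrb, a flavin reductase, stood at -0.26. Enpp3, an ectoenzyme that cleaves nucleotides, was at least 1.5-fold lower with rfk siRNA at -0.76, with signals of 285, 168, 231 and 221 and probe sets from -0.82 to -0.52. Slc52a3, a riboflavin transporter, lay below the filter, with signals of 28.6, 66.7, 24.6 and 55.9 and a difference of 1.22 that is of unreliable size.

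Enzymes that carry FAD or flavin mononucleotide lay near 0 as groups. Of 26 such enzymes of mitochondria, 9 lay above 0 and 17 below, with a median of -0.06 (0.01 with the arrays centred on their medians). Past 1.5-fold were 0, beside 6.28% (lower) and 3.22% (higher) of all compared genes and 3% and 1.32% of bright ones. Acadm, the medium-chain acyl-CoA dehydrogenase, stood at -0.43, with signals of 7945, 5898, 5679.9 and 8279, so that rfk siRNA lay with control and aof2 siRNA with tranylcypromine. Sardh, sarcosine dehydrogenase, stood at -0.54 on a dim signal, with another probe set at 0.17. Dhodh, an enzyme of pyrimidine synthesis, stood at 0.21, with another probe set at -0.04. Of 21 flavin-dependent enzymes elsewhere in the cell, 8 lay above 0 and 13 below, with a median of -0.02, and with median centring 11 lay above and 10 below, with a median of 0.05. Xdh, xanthine dehydrogenase of purine breakdown, was the 1 member past 1.5-fold, beside 6.28% (lower) and 3.22% (higher) of all compared genes. It stood at -0.63 with signals of 7783, 5040.4, 5382 and 7644. Smox, spermine oxidase, stood at 0.55, Ero1a, which forms disulfide bonds in the endoplasmic reticulum, at 0.47, and Gfer, a sulfhydryl oxidase, at 0.43.

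Most partners of LSD1 lay within 1.5-fold, as did most compared genes. Of 18 compared genes of the LSD1 and CoREST complex and its recruiting factors, Kdm1a included, 13 lay below 0, with a median of -0.09. At least 1.5-fold lower were 2, beside 6.28% of all compared genes. Hdac1, a deacetylase of the complex, stood at 0.30 with signals of 2741, 3377, 3622 and 2337, and Hdac2 at 0.22. Rreb1, a zinc finger factor, stood at -0.66 with probe sets from -1.24 to 0.17, Gse1 at -0.62 with probe sets from -0.62 to -0.06, and the recruiting repressor Snai1 at -0.48. Kdm1a was the 1 gene of this list past 1.5-fold in the higher direction, beside 3.22% of all compared genes.

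Genes of lipid breakdown and the lipid droplet were lower with rfk siRNA as a group. All 8 compared members of 13 on the array lay below 0, with a median of -0.45 (-0.42 over all 13), and 3 were at least 1.5-fold and 2 at least 2-fold lower (the share over all compared genes is 6.28% and 1.6%). Pnpla2, named above, was known from the study, so its direction is no independent evidence. Plin3, which coats small droplets, had signals of 2018 (aof2 siRNA), 1236 (rfk siRNA), 1456 (control siRNA) and 2244 (tranylcypromine) and a difference of -0.71. Lipe, hormone-sensitive lipase, had 238, 172, 186 and 249 and a difference of -0.47. Plin2, the coat protein of growing droplets, had 2881, 2152, 2536 and 3277 and a difference of -0.42. In Plin2, Plin3 and Lipe, as in Pnpla2, the tranylcypromine array was the highest of the 4 and the rfk siRNA array the lowest. Bscl2, or seipin, stood at -0.25, Fitm2 at -0.24, and Abhd5, the coactivator of the lipase, at -0.06. The median was -0.56 to -0.37 over the settings tried, and 7 of the 8 lay below 0 once the arrays were centred on their medians. These are bulk RNA samples, in which fewer fat-storing cells and less RNA per cell cannot be told apart.

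Other genes of fuel use divided. Ppargc1a, the coactivator of mitochondrial genes PGC-1 alpha, was higher with rfk siRNA, with signals of 207 (aof2 siRNA), 288 (rfk siRNA), 91 (control siRNA) and 349.9 (tranylcypromine), a difference of 0.48 and probe sets from 0.14 to 1.21. Pdk4, the kinase that inhibits pyruvate dehydrogenase, was lower, with signals of 3878, 2663, 2079.6 and 3271 and a difference of -0.54. Slc27a1, a fatty acid transporter, stood at -0.60 with 156, 103, 106 and 143. All 3 had been picked from knowledge of the study, and the signals of Ppargc1a and Slc27a1 were dim. Of 14 regulators of energy expenditure 9 lay above 0, with a median of 0.16 (0.04 to 0.23 over the settings tried). At least 1.5-fold higher were 0, beside 3.22% of all compared genes. At least 1.5-fold lower were 2, Pnpla2 and Slc27a1, beside 6.28%. Sirt1, a deacetylase that acts on PGC-1 alpha, stood at 0.51 and Pprc1, a relative of PGC-1 alpha, at 0.48.

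Of 21 fatty acid oxidation genes 16 lay below 0, with a median of -0.15 that came to -0.07 with median centring, and 19 were bright. At least 1.5-fold lower was 1 member, beside 6.28% of all compared genes and 3% of bright ones. That member, Cpt2, the inner carnitine palmitoyltransferase, stood at -0.65 on its brightest probe set and at 1.67 on its other one, and settles no direction. Acaa2, the mitochondrial thiolase, had signals of 1750.0, 1204, 1159 and 1897 and a difference of -0.54, with its 3 probe sets from -0.54 to -0.39. The 42 subunits of the respiratory chain and ATP synthase lay between -0.27 and 0.28, with a median of -0.05 that came to 0.02 with median centring. All 42 were bright and 0 passed 1.5-fold, beside 3% (lower) and 1.32% (higher) of bright genes. Glycolysis genes had a median of 0.06 over 19, and Pfkfb3, which makes the activator of phosphofructokinase, stood at 0.97 from dim signals of 64.5, 126, 114 and 38.4.

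Transcription factors of fat cell formation held single lower genes, while the lean of the list depended on the scaling. Of 22 compared, 16 were below 0, with a median of -0.08. With median centring 11 lay on each side of 0, with a median of -0.01. At least 1.5-fold lower were 4 (beside 6.28% of all compared genes) and 0 were at least 1.5-fold higher (3.22%). Pparg, the nuclear receptor that drives fat cell formation, had signals of 963 (aof2 siRNA), 615 (rfk siRNA), 1047 (control siRNA) and 771 (tranylcypromine) and a difference of -0.65, the rfk siRNA array being the lowest of the 4. Klf5, a zinc finger factor upstream of Pparg, had 1957, 1159, 816 and 1820.0 and a difference of -0.76, here with all treated arrays above control. Nr1h3, the oxysterol receptor LXR alpha, stood at -1.02 from dim signals of 149, 73.2, 103 and 142. Stat5b stood at -0.74, with another probe set at 0.11. Creb1, the factor that answers cyclic AMP, stood at 0.36, with probe sets from 0.05 to 0.36.

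Of 14 products of mature fat cells on the array 6 were compared. Adipoq and Lep, which encode adiponectin and leptin, lay below the filter with signals of at most 22.01 and 5.03 over the 4 arrays. Fabp4, which carries fatty acids inside fat cells, had signals of 1301, 791, 2463 and 1093 and a difference of -0.72, but a dim probe set whose name carries no mark of several matching transcripts gave 0.42. Lpl, lipoprotein lipase, had 3919, 5317, 5272 and 3808 and stood at 0.44. Of 20 preadipocyte and anti-adipogenic genes 11 lay above 0, with a median of 0.03 that was -0.03 without probe sets marked for several transcripts, and 3 were at least 1.5-fold higher, beside 3.22% of all compared genes. These were Hes1, a target of Notch, with 204, 358, 369 and 317 and a difference of 0.81, Gata2 at 0.79 with probe sets from 0.33 to 0.79, and Id4, which blocks helix-loop-helix factors, with 1560.4, 2377, 783 and 893 and a difference of 0.61. For Hes1 the aof2 siRNA array was the low one, and for Id4 the rfk siRNA array was the highest of the 4.

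Lipid synthesis genes leaned to higher signal with rfk siRNA. Of 19 genes of cholesterol synthesis and uptake 15 lay above 0, with a median of 0.24 (0.22 to 0.31 over the settings tried). All 19 were bright and 0 passed 1.5-fold, beside 3% (lower) and 1.32% (higher) of bright genes. The control array lay nearer to aof2 siRNA for 16 of the 19, beside 46.8% of all compared genes. The tranylcypromine array did so for 4, beside 60.0%. Hsd17b7, an enzyme of the pathway, had signals of 2495, 3540.0, 2576 and 3672 and a difference of 0.50. Stard4, a cholesterol carrier, stood at 0.43 and Idi1, the isomerase of isopentenyl diphosphate, at 0.32. Insig1, which retains the sterol-sensing factors in the endoplasmic reticulum, lay the other way at -0.46, with signals of 1799, 1310.0, 2106 and 2169. Fatty acid and triglyceride synthesis had 15 of 20 genes above 0 with a median of 0.06, led among bright genes by Elovl6, a fatty acid elongase, with 1803, 2588, 1685 and 2424 and a difference of 0.52. Thrsp stood at 0.87 on a dim probe set whose name marks several matching transcripts and at -1.35 without it, which settles no direction.

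Cell cycle genes lay above 0 with few exceptions. Of 33 S phase genes 32 lay above 0, with a median of 0.29, and 32 were bright. At least 1.5-fold higher were 4, beside 3.22% of all compared genes and 1.32% of bright ones, and 0 were at least 2-fold higher. Cdc6, which loads the replicative helicase, had signals of 347 (aof2 siRNA), 668 (rfk siRNA), 692 (control siRNA) and 453 (tranylcypromine) and a difference of 0.95. Fen1, the nuclease of lagging-strand synthesis, had 1992, 3214, 2612 and 2256 and a difference of 0.69. Tipin, which steadies the replication fork, had 2635, 4237, 3308 and 2641 and a difference of 0.69. Ccne2, a cyclin of the entry into S phase, had 967, 1511, 1513 and 879.5 and stood at 0.64. The exception was Tyms, thymidylate synthase, at -0.07 on a dim signal.

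Of 33 genes of G2 and M phase, 31 lay above 0, with a median of 0.31. All 33 were bright, and 3 were at least 1.5-fold higher, beside 3.22% of all compared genes and 1.32% of bright ones. Aurkb, a mitotic kinase, had signals of 876, 1353, 1293 and 1089.8 and a difference of 0.63. Mad2l1, a protein of the spindle checkpoint, had 5451, 8279, 7347 and 5826 and a difference of 0.60. Kif11, a kinesin that separates the spindle poles, had 1065, 1673, 1442 and 982 and a difference of 0.65, with its 3 probe sets from 0.26 to 0.65. Below 0 lay Nusap1 at -0.30 and Kif4 at -0.05. In both lists the control array stood mostly with rfk siRNA. It lay nearer to the aof2 siRNA array for 6 of 33 S phase and 5 of 33 G2 and M phase genes, beside 46.8% of all compared genes. The tranylcypromine array lay nearer to aof2 siRNA for 21 and 18, close to its share of 60.0% over all compared genes. Over the settings tried the medians were 0.28 to 0.36 for S phase and 0.26 to 0.38 for G2 and M phase.

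Promoters of G2 and M phase genes are known for a shared layout, the CHR element with a CCAAT box, and are shown because these genes lay on the same side together. RefSeq promoters of GRCm38.p6, from 250 bases before to 50 after the start, were found for 27 of the 33 genes, with 29 promoters. The CHR letters TTTGAA, searched on both strands, occurred in 23 of the 29 (79.3%), beside 17.9% of all 32851 promoters of the table. CCAAT, on both strands, occurred in 23 (79.3%), beside 37.4% of all. Both occurred in 20 (69.0%), beside 6.95% of all, and in 0 promoters did they overlap. By gene, both occurred in 18 of the 27, since Ect2 and Prc1 enter with repeated, overlapping promoter windows. A match of letters is a description and not a measured site. The 4 promoters with both motifs and the highest differences are printed 5′ to 3′ on the strand of the gene, with the CHR and CCAAT letters of either strand in capitals. They belong to Kif11 (chr19:37376132-37376431, plus strand), Aurka (chr2:172370521-172370820, minus strand), Ttk (chr9:83834439-83834738, plus strand) and Bub1b (chr2:118597961-118598260, plus strand).
Kif11: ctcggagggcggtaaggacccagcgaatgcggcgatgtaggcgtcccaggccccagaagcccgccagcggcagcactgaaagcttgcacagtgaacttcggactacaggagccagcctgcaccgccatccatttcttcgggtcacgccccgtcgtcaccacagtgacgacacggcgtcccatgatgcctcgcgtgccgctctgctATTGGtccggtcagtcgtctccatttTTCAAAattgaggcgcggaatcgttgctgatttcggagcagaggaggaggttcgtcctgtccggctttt
Aurka: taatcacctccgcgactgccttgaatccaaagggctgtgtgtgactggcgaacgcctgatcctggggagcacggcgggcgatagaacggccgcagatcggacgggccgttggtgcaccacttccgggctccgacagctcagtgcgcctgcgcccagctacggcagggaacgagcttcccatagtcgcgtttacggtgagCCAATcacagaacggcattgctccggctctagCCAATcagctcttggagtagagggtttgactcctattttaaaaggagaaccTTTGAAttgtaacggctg
Ttk: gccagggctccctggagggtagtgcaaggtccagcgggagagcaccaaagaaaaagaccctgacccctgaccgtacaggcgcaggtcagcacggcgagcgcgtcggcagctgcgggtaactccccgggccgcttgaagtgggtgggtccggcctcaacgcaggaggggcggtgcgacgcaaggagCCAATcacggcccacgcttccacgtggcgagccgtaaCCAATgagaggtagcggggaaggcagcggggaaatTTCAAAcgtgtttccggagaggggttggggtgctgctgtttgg
Bub1b: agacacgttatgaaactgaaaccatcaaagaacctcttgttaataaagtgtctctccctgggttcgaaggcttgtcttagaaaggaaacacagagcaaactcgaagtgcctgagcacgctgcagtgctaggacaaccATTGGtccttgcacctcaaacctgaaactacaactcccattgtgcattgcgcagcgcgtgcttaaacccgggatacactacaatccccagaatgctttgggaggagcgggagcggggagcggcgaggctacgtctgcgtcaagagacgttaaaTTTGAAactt
Aurka, a kinase of the spindle poles, stood at 0.44 between the siRNAs, Ttk, a kinase of the spindle checkpoint, at 0.44, and Bub1b, a further checkpoint protein, at 0.42. In Kif11, Aurka, Ttk and Bub1b the CCAAT letters appear on the gene's strand as CCAAT or ATTGG, and the CHR letters as TTTGAA or TTCAAA. In other lists, the sterol letters TCACNCCAC occurred in 1 of 18 promoters of cholesterol genes (1.24% of all promoters), GGGNNTTTC in 6 of 16 of inflammatory genes (4.36% of all), and TTGCGCAA in 0 of 11 of lipid droplet genes and 0 of 2 of fat cell products (0.183% of all), each searched on both strands.

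**Figure D4:**
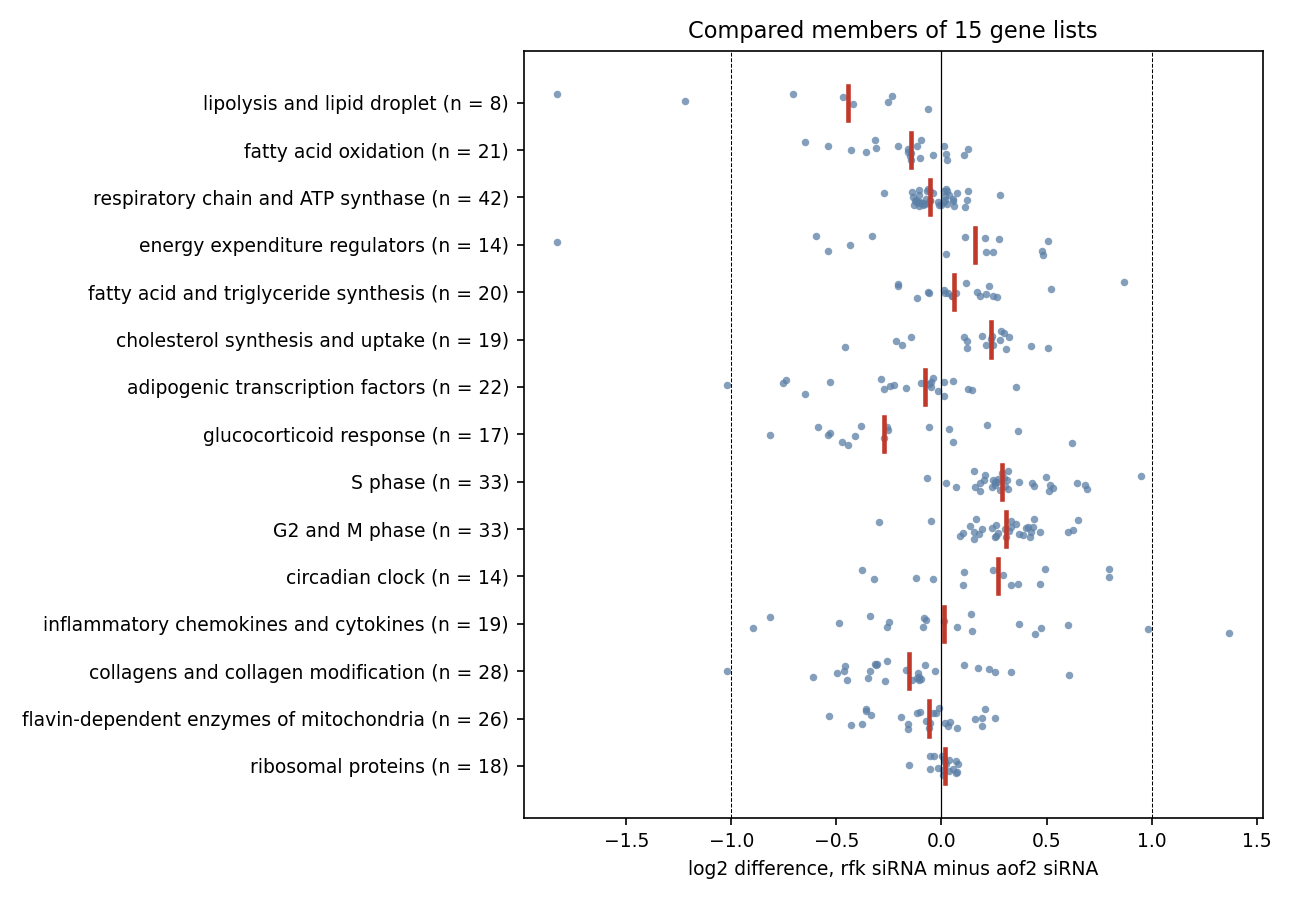
Log2 difference rfk minus aof2 (horizontal axis) of each compared member of 15 gene lists (rows, with the number compared), 1 point a gene, with red bars at the list medians and dashed lines at 2-fold. The lipid droplet list lies wholly below 0, both cell cycle lists almost wholly above 0, and the respiratory chain and ribosomal protein lists close to 0.

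Of 17 compared glucocorticoid response genes, which dexamethasone induces, 12 lay below 0 with a median of -0.27 (-0.38 to -0.20 over the settings tried). Fkbp5, a chaperone of the glucocorticoid receptor, had signals of 11054 (aof2 siRNA), 7352 (rfk siRNA), 7671 (control siRNA) and 11080.0 (tranylcypromine) and a difference of -0.59. Lcn2, the iron-binding protein lipocalin 2, had 8846, 5026, 7864 and 4971 and a difference of -0.82. Sgk1, a kinase induced by glucocorticoids, lay the other way at 0.62, with 4048, 6235, 4808 and 3769. For Fkbp5 the rfk siRNA array stood with control and the aof2 siRNA array with tranylcypromine, whereas for Lcn2 the rfk siRNA and tranylcypromine arrays were the low ones.

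Of 20 heat shock proteins and chaperones 12 lay above 0, with a median of 0.08. Hspb1, a small heat shock protein, was at least 2-fold lower with rfk siRNA at -1.08, with 1267, 600.4, 675 and 1099 and a second probe set at -1.20. Genes of ATF4 and the unfolded protein response had 20 of 25 above 0 and a median of 0.09. Past 1.5-fold were 0, beside 6.28% (lower) and 3.22% (higher) of all compared genes and 3% and 1.32% of bright ones. Targets of p53 and cell cycle inhibitors had a median of -0.04 over 24, with Gadd45g, a growth arrest gene, at -0.83 and Cdkn1a, the inhibitor p21, at -0.36. Targets of NRF2, the factor of oxidant defence, had a median of -0.03 over 16, and the p53 and NRF2 medians both came above 0 with median centring. The 18 ribosomal proteins, used as a group of steady bright genes, lay between -0.16 and 0.08 with a median of 0.01.

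Inflammatory chemokine and cytokine genes spread in both directions, with 10 of 19 above 0 and a median of 0.01 that was below 0 under 3 of the settings tried. Saa3, an acute phase protein, was at least 2-fold higher with rfk siRNA at 1.37, on 1 probe set. Its signals were dim, with 155 (aof2 siRNA), 401 (rfk siRNA), 301 (control siRNA) and 145 (tranylcypromine). Ccl9 stood at 0.60, and Cx3cl1, or fractalkine, at -0.90. In Saa3, as in Cxcl5 above, the aof2 siRNA and tranylcypromine arrays lay below the control and rfk siRNA arrays. Of 13 interferon response genes 0 passed 1.5-fold, beside 6.28% (lower) and 3.22% (higher) of all compared genes. Bst2, or tetherin, stood at -0.56 and Gbp2 at 0.49.

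Matrix genes held some of the larger single differences. Of 28 genes of collagens and collagen modification 22 lay below 0, with a median of -0.15 (-0.08 with median centring). Loxl1, which cross-links elastin and collagen, had 5361, 3509.9, 4025 and 5515 and a difference of -0.61, with another probe set at -1.21. P4ha1, a prolyl hydroxylase of collagen, lay the other way at 0.61 with 1147, 1748, 2253 and 1369. Among 20 proteoglycans, hyaluronan genes and proteases, the small leucine-rich proteoglycans Dcn and Aspn stood at opposite ends. Aspn, or asporin, had signals of 8297 (aof2 siRNA), 3565 (rfk siRNA), 2863 (control siRNA) and 5393 (tranylcypromine) and a difference of -1.22, with a second probe set at -1.09, against 1.24 for Dcn. Cd44, the hyaluronan receptor, stood at 0.41.

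Growth factor and signalling genes were also divided. Igfbp4, which binds insulin-like growth factors, had signals of 5403 (aof2 siRNA), 2577 (rfk siRNA), 3091 (control siRNA) and 7159.7 (tranylcypromine) and a difference of -1.07, and all of its 6 probe sets lay below 0, from -2.56 to -0.92. Irs2, an adaptor of the insulin receptor, stood at 0.69 with 307, 495, 317 and 332. Igfbp5 stood at 1.55 from dim signals of 40.7, 119, 63.1 and 76.5. Ptgis, prostacyclin synthase, had 1754, 904, 899 and 1888 and a difference of -0.96, with rfk siRNA at the control signal. Rgs4, a regulator of G protein signalling, had dim signals of 128, 369, 431 and 137 and a difference of 1.53, with probe sets from 0.62 to 1.53. Ptgis and Rgs4 thus lay at opposite ends of a list of 14 with 7 genes on each side of 0, and in both the aof2 siRNA and tranylcypromine arrays stood together.

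In the Wnt and BMP list of 17 genes, Ccn5, a matricellular protein, was lowest with rfk siRNA, with 1655, 853, 1491 and 1500.3 and a difference of -0.96. Grem1, an antagonist of bone morphogenetic proteins, had 3456, 2064, 1587 and 2658 and a difference of -0.74, and Sfrp2, a secreted Wnt antagonist, lay the other way at 0.68. Of 23 immediate early and cyclic AMP-induced factors 14 lay above 0, with Fos at 0.64, Egr1 at 0.47, Jund at -0.64 and Crem at -0.74. Of 14 clock genes 10 lay above 0, with a median of 0.27 (0.22 to 0.34 over the settings tried). Cry1, a repressor of the clock, had 149, 259, 389.9 and 301 and a difference of 0.80, the aof2 siRNA array being the lowest of the 4. Tef, a factor of clock output, stood at 0.49 with probe sets from 0.04 to 0.49, and Per3 at 0.80 from dim signals with probe sets from -0.68 to 0.80.

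The list named epithelial and mesothelial genes had the lowest median of the 34 lists. Its name is a label of the list, and a change of cell type was not tested. Of 23 on the array 7 were compared, all below 0, with a median of -1.67 and 5 at least 2-fold lower (beside 1.6% of all compared genes), while over all 23 the median was -0.44. Msln, Slurp1, Cystm1 and Crip1, described above, belong to this list, and so does Krt19, a keratin of simple epithelia, with 267, 101, 100.1 and 444 and a difference of -1.40. Epcam stood at -0.33 and Krt5 at -0.02. The list was assembled in part from genes already known to differ in these data, so its count is no independent evidence of a direction.

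Of the markers of other cell types, most lay below the filter. The sums below take in all markers of a list on the array, also those below the filter. Of 8 macrophage markers 2 were compared, and the summed signal of the list was 616 with aof2 siRNA and 413 with rfk siRNA, over 413 to 713 in the 4 arrays. Its defining genes Adgre1 and Ptprc lay below the filter. Neural markers had 2 of 8 compared, with sums of 350.2 and 258, and endothelial markers 1 of 7, with 135 and 133. Muscle markers had 3 of 9 compared, with sums of 497 and 539, and Myod1 and Myog lay below the filter. Of the 3 compared, 2 were at least 2-fold higher with rfk siRNA (beside 0.565% of all compared genes) and 1 lay the other way at -0.92. Des, an intermediate filament protein and the highest of them, differed by 1.90 from dim signals of 25.7, 96, 88.3 and 80.6. Bone and cartilage markers had 2 of 6 compared, with sums of 1248 and 1664, the rfk siRNA array being the highest of the 4. Most of that sum came from Sox9, a factor of cartilage that preadipocytes also express, with 1023, 1491, 915 and 862 and a difference of 0.54, while Col2a1 and Acan lay below the filter. Preadipocyte and fibroblast markers had 8 of 9 compared, with sums of 98780.0 and 93245 and 7 of the 8 below 0. The 4 compared fat cell markers of 6 all lay below 0, with a median of -0.59 that was -0.30 over all 6. The sums over the 6 were 2476 and 1575. The part of these sums in the lower lipid droplet and adipogenic genes was not tested.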

How the data were processed

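Total RNA from 4 cultures, 250 ng each, was labelled as biotin cRNA and put onto 1 Affymetrix 3' array per culture, and the arrays labelled rfk siRNA and aof2 siRNA were compared. The deposited values are MAS5 intensities on a linear scale, computed by the authors with MAS5, per the submitters' processing notes, which give no version here. MAS5 sets no floor, so dim probe sets scatter widely on the log2 scale. Array-wise scaling would hide a shift in RNA content that all genes share.

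The log2 of each signal was used without an offset. Of 45101 probe sets, 34958 carried a single gene symbol, 932 carried several, and 9211 are unnamed here. The identifiers of 34754 were found in RefSeq GRCm38.p6, which changed 0 symbols. The probe set brightest in mean log2 over the 4 arrays stood for a gene, which was compared if that mean reached the median over the array. No coordinates of array genes are given, since the array is not tied to a build in the sources used here. Groups came from the labels. No test, p-value or SD is given with 1 array a side, and nothing says whether further cultures were made. The shares of all compared genes past 2-fold and 1.5-fold serve as the background for counts.

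The members, the 34 gene lists (803 genes, 742 on the array, 604 compared) and the marker lists were chosen with earlier results of these data known. Named genes are both targets, the 15 highest and 15 lowest differences among genes reaching the 75th percentile of signal in either array, up to 3 at each end of a list (all of a list of 8 or fewer), 4 genes known from the study (Ppargc1a, Pdk4, Slc27a1 and Pnpla2), and, for each siRNA array and direction, the 6 genes whose array stood furthest from the 3 others. Pparg, Ccne2, Aurka, Ttk, Bub1b, Isg20, Ehd4 and the single cell type markers were named after their values were seen. Alternatives were median centring, quantile normalization, an offset of 16, the mean over a gene's probe sets, no probe sets ending in _s_at, _x_at or _a_at (which can match several transcripts), no filter, a 75th percentile filter, and 1.5-fold and 3-fold thresholds. The steps were tested on simulated data. Scripts ran in Python 3.11.15 with matplotlib 3.10.9, SciPy 1.17.1, pandas 2.3.3 and NumPy 2.4.6.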

Additional observations from a re-analysis of the deposited data

How the results depend on the processing

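The counts moved most with the filter and the threshold. The number of genes at least 2-fold higher with rfk siRNA was 61 and came to 36 with an offset of 16, 1544 with no filter and 5 with the 75th percentile filter, and to 347 and 8 at 1.5-fold and 3-fold. The 173 lower genes came to 1979 with no filter and 29 with the stricter one, and to 677 and 33 at 1.5-fold and 3-fold. Among lower genes the tranylcypromine array lay nearer to aof2 siRNA for 62.7% with no filter, 76.1% at 1.5-fold and 100% at 3-fold, and among higher genes for 80% with the stricter filter, 60.2% at 1.5-fold and 12.5% at 3-fold. The control array lay nearer to aof2 siRNA for 45.8% and 63.6% of lower genes at 1.5-fold and 3-fold, and for 25% of higher genes at 3-fold. The median of the epithelial and mesothelial list was -0.44 with no filter and -2.01 with the stricter filter, which take in more and fewer of its genes. For the filters and thresholds, the numbers of genes taken in differ by construction, and further causes were not tested. The differences of 224 named genes took 1089 alternative values, of which 1041 lay within 0.28 of the main one, the median gap between probe sets of a gene. The other 48 moved further, and 0 of the named genes past 2-fold changed sign. Some named genes inside 2-fold did, such as Ccn1 (-1.05 to 1.06) and Cpt2 (-0.65 to 0.51). Thrsp (-1.35 to 0.94) and Fabp4 (-0.73 to 0.42) did so on probe sets below the filter. Some genes past 2-fold came inside it under a setting, such as Umps (0.53), Nagk (-0.77) and Pi16 (-0.37). Of 238 alternative values for the 34 list medians, 236 lay within 0.28 and 23 differed in sign, all from lists with medians between -0.06 and 0.03. No paired analysis was possible because each group had 1 array, and for the same reason no replicate could be left out. With 1 array a side, signal over background limits what can be read: differences of dim genes, below a signal of 414, are of unreliable size.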

Other observations

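Probe sets without exactly 1 gene symbol were left out of the comparison. Of these, 2723 had a mean signal at or above the filter, and 35 of them were at least 2-fold higher and 63 at least 2-fold lower with rfk siRNA than with aof2 siRNA. Among the 881 bright ones, 2 were higher and 5 lower.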
